A study of Mus musculus with 16 samples.

Results

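The antimicrobial genes described here are 8 genes that skin or its infiltrating cells use against microbes, namely the beta-defensin genes Defb1, Defb3, Defb4, Defb6 and Defb14, the lectin gene Reg3g, the protease inhibitor gene Slpi and the peptidoglycan recognition gene Pglyrp1. The genes were chosen from earlier results of these same arrays, and which values served the choice is not recorded. Every array probe whose accession led to one of the 8 symbols was taken, which gave 1 probe for each gene. Accessions named 27427 of the 39429 probes, for 20832 gene symbols in all. Because Reg3g differed widely between wounds on the arrays labelled day 7, all comparisons of the 8 genes on that labelled day are given below as description, with values, errors and the number of genes past the thresholds but without p-values. Arrays labelled day 14 may have entered the choice as well, so that the p-values given there are not independent evidence.

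RNA came from homogenised skin wounds on the dorsum of female mice, made as full-thickness wounds of 4 mm and harvested with the surrounding intact skin. WT mice were C57BL/6J, aged 10 to 12 weeks, and db/db mice were C57BLKS/J carrying the leptin receptor mutation on both alleles, aged 10 weeks, so that the strain and the mutation cannot be told apart. The db/db wounds were left untreated, treated daily with estradiol benzoate in sesame oil (db/db + estrogen) or treated with sesame oil alone (db/db + vehicle), and WT wounds were untreated. The 16 arrays comprised, for each of these 4 groups, 2 with the label day 7 and 2 with the label day 14, and nothing in the labels shows whether 2 arrays of a group came from separate wounds of separate mice beyond their name as biological replicates. The days printed in the study's tables and the days on the array labels are exchanged for values such as those of Reg3g. The data do not show which is right, and arrays are named here by their labels. The 2 labelled days were also scanned on 2 different days, so that day and scan cannot be told apart.

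Beta-defensins are small cationic peptides that damage microbial membranes and also attract immune cells. In skin, keratinocytes make some of them at rest and others after injury or under cytokines of the interleukin-17, interleukin-22 and interleukin-1 families. Reg3g is a C-type lectin that binds the peptidoglycan of Gram-positive bacteria, Slpi inhibits neutrophil elastase and cathepsin G besides acting on microbes, and Pglyrp1 is a peptidoglycan binding protein stored in neutrophil granules.

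Upstream sequence from RefSeq was at hand for 5 of the 8 genes, Defb3, Defb6, Reg3g, Slpi and Pglyrp1. Defb3 and Defb6 are shown because they are related genes on 1 chromosome whose levels differed between estrogen and vehicle by very unlike amounts on the arrays labelled day 7, and Reg3g because it had the widest difference between db/db and WT. Each window runs from 250 bases before to 50 bases after the annotated start, 5′ to 3′ on the gene's strand, in build GRCm38.p6. The Defb3 window is chr8:19293111-19293410 on the plus strand, the Defb6 window is chr8:19225228-19225527 on the plus strand and the Reg3g window is chr6:78468825-78469124 on the minus strand. Capitals mark the letters of a TATA box (TATAAAA or TATATAA) and of an NF-kappaB motif, searched on both strands.
Defb3: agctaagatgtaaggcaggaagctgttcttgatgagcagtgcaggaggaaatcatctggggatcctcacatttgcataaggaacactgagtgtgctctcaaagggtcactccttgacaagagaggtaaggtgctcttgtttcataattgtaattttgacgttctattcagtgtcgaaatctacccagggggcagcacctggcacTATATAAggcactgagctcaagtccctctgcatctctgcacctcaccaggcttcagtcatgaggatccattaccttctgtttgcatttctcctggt
Defb6: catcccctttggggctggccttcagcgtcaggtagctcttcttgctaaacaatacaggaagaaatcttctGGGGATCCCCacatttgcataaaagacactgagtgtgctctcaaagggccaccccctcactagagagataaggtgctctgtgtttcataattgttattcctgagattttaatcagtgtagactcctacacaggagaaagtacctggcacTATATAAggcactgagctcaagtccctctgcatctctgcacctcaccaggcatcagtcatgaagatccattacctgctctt
Reg3g: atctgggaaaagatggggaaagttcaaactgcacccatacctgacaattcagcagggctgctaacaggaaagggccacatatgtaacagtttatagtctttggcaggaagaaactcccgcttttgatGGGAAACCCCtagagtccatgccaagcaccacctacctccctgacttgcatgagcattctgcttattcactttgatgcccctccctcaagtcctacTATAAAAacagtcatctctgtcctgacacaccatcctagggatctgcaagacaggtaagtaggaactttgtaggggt
A global alignment of the Defb3 and Defb6 windows had 239 identical bases in 315 columns, 75.9%, against 44.9 to 50.6% for the other pairs among the 5 windows. A TATA box was found in the Defb3, Defb6 and Reg3g windows and in 7.98% of 32851 windows of the same length. The NF-kappaB motif was found in the Defb6, Reg3g and Pglyrp1 windows and in 4.51% of all windows. STAT letters (TTCNNNGAA, in 8.30% of windows), AP-1 letters (TGANTCA, in 7.81%) and the palindromic estrogen response element (in 0.07%) were in none of the 5 windows. These matches describe letters in the windows and were not tested as sites.

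Levels are given as log2 of the background-subtracted signal minus log2 of the array's 75th percentile, so that 0 is the 75th percentile and 1 unit is a 2-fold difference. The 75th percentile lay between 1091 and 2549 signal units, between 70.1 and 79.0% of probes were well above background, and no spot was saturated. Of the 8 probes, 6 were well above background on all 16 arrays. The Defb3 probe was so on 14 arrays and missed it on both db/db + estrogen arrays labelled day 7, and the Defb4 probe was so on 12 arrays and missed it on the db/db + estrogen and WT arrays labelled day 7. All 11 markers of basal and suprabasal keratinocytes were well above background in every group, as were all 4 skeletal muscle markers. In whole-wound RNA, fewer cells that make a transcript and less transcript per cell cannot be told apart. A probe counted as called when limma gave an unadjusted p under 0.05 and the fold was over 2, and adjusted p-values are Benjamini-Hochberg values over all probes tested. With 2 arrays against 2, an exact permutation test cannot go below p = 0.333, so that each p here leans on the spread that limma shares across 16 arrays and all probes.

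**Figure D1:**
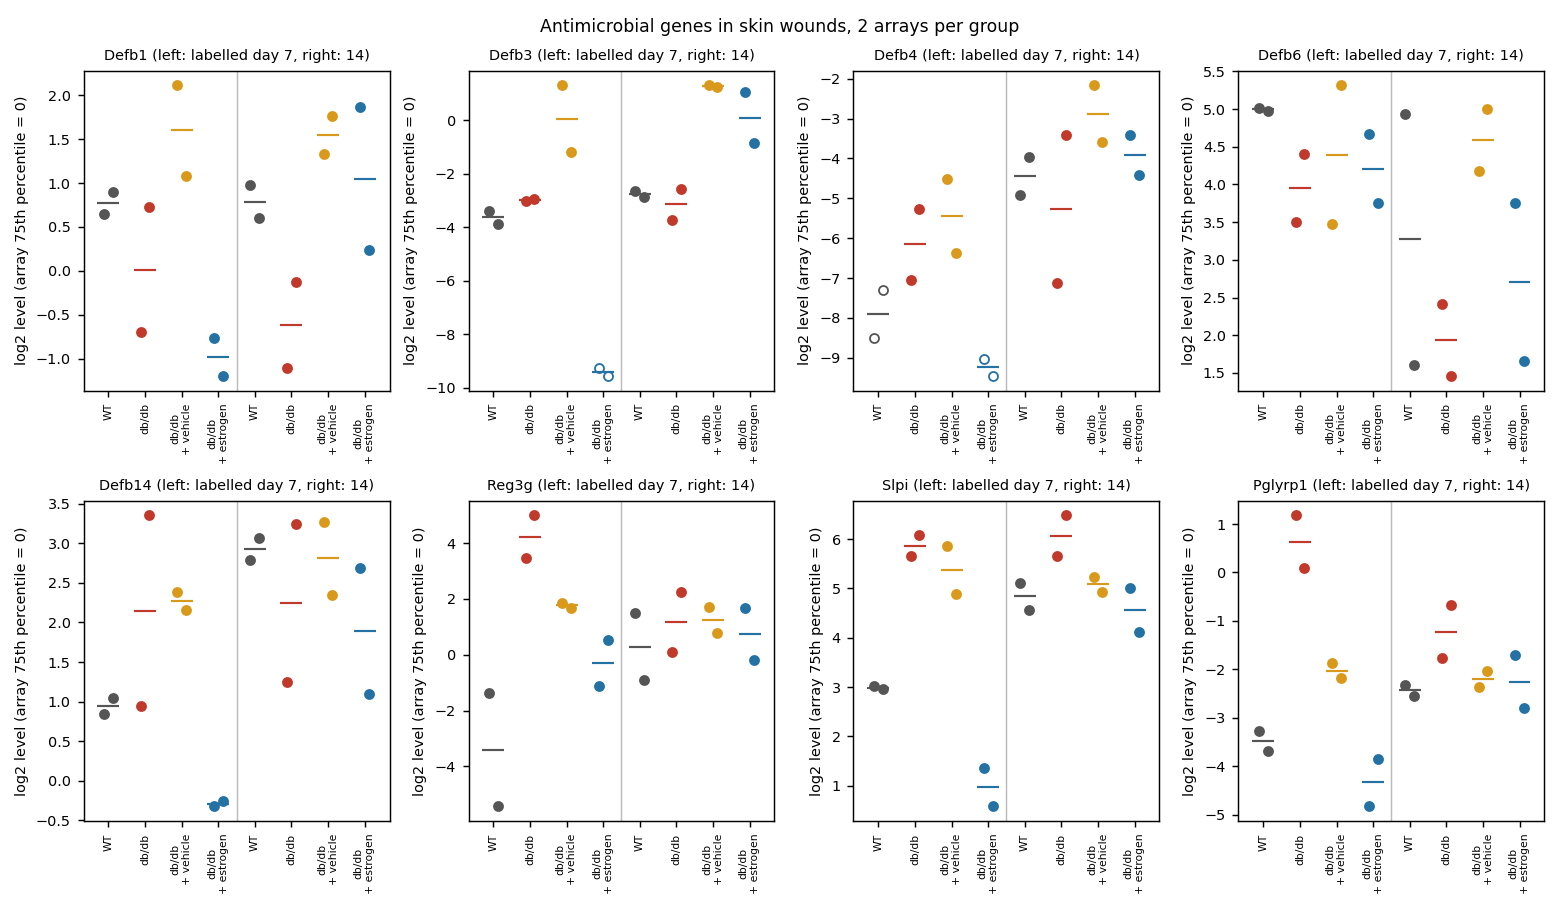
Log2 level of each of the 8 genes (vertical axis, 0 is the 75th percentile of the array) in the 8 groups, with 1 point per array and a bar at the mean of 2 arrays. Open points were not well above background. Defb1, Defb3, Defb4, Defb14, Slpi and Pglyrp1 had their lowest group means on the db/db + estrogen arrays labelled day 7, and Reg3g had its highest group mean on the db/db arrays of that label.

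On the arrays labelled day 7, db/db + estrogen wounds held less RNA of most of these genes than db/db + vehicle wounds, which differed from them only in the hormone. All 8 genes had a lower mean with estrogen, as had 49.1% of the 30155 probes tested in that comparison, and their median log2 difference was -2.57 against 0.01 over all probes. For 7 genes no estrogen array reached the level of a vehicle array, where 29.7% of all probes were lower without overlap. Each of the 2 slides carrying these arrays held 1 array of each group, and 7 genes were lower with estrogen on both slides, as were 33.1% of all probes.

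Defb3, an inducible beta-defensin of keratinocytes, had the widest difference. Its level on the db/db + vehicle arrays labelled day 7 was 1.31 and -1.18. On the db/db + estrogen arrays it was -9.28 and -9.56, where the probe read 2.25 and 2.54 signal units and was not well above background. The vehicle mean was at least 159-fold above the estrogen arrays, and the fitted difference of the measured values was -9.48 (SE 0.76). On the untreated db/db arrays labelled day 7 Defb3 stood at -3.04 and -2.96, and on the WT arrays at -3.40 and -3.87. Estrogen arrays were thus below every other group of that label, and vehicle arrays above every other group. Against untreated db/db, Defb3 was at least 19.0-fold lower with estrogen and 8.35-fold higher with vehicle.

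Defb3 was high in both treated groups on the arrays labelled day 14. It read 1.04 and -0.84 with estrogen and 1.31 and 1.23 with vehicle, against -3.72 and -2.58 in untreated db/db and -2.64 and -2.87 in WT. No treated array overlapped an untreated one. The difference from untreated db/db was 21.4-fold with vehicle (log2 difference 4.42, SE 0.76, limma adjusted p = 0.0433), which was the only member difference of that labelled day past the adjusted threshold. With estrogen it was 9.52-fold (log2 difference 3.25, SE 0.75), called at the unadjusted threshold with a limma adjusted p = 0.156. Estrogen and vehicle differed by -1.17 (SE 0.76, limma adjusted p = 0.797), with no overlap of arrays.

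Defb4, an inducible beta-defensin that attracts cells bearing the receptor Ccr6, was dim in several groups. Its level was -9.02 and -9.46 with estrogen and -8.49 and -7.30 in WT on the arrays labelled day 7, none of them well above background. Untreated db/db read -7.04 and -5.27 and db/db + vehicle -4.51 and -6.37. The vehicle arrays were at least 3.49-fold above the estrogen arrays, and the fitted log2 difference was -3.79. It was -1.80 (SE 1.1) when dim signals were set to the background floor, -0.54 (SE 0.59) after another background correction and -2.86 without vehicle replicate 1. On the arrays labelled day 14 the 8 values ran from -7.13 to -2.16 and untreated db/db alone spanned -7.13 to -3.41, so that Defb4 was called in no comparison there. Without db/db replicate 2 it was called lower in db/db than in WT (-2.68) and higher with estrogen (3.22) and with vehicle (4.26) than in db/db.

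Defb14, a further inducible beta-defensin, kept close values in the 2 arrays of most groups labelled day 7. It read -0.32 and -0.26 with estrogen, 2.39 and 2.15 with vehicle, and 0.85 and 1.04 in WT. Untreated db/db was split, at 0.95 and 3.35. Estrogen was 5.89-fold below vehicle (log2 difference -2.56, SE 0.82). Labelled day 14 gave no call for Defb14, and its group means lay between 1.90 and 2.93.

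Defb1, which epithelia make without induction, was lower with estrogen on the arrays labelled day 7 and higher in treated than in untreated db/db wounds on those labelled day 14. On labelled day 7 it read -0.76 and -1.20 with estrogen and 2.11 and 1.09 with vehicle, a 5.98-fold difference (log2 difference -2.58, SE 0.61). The values of labelled day 14 were -1.11 and -0.13 in untreated db/db, 1.86 and 0.24 with estrogen, 1.33 and 1.77 with vehicle, and 0.97 and 0.60 in WT. Untreated db/db was below each other group without overlap. It was called 3.17-fold higher with estrogen (limma adjusted p = 0.388), 4.49-fold higher with vehicle (limma adjusted p = 0.116) and 2.65-fold below WT in db/db (limma adjusted p = 0.125), so that none of these passed the adjusted threshold. The estrogen call was lost without estrogen replicate 1 (log2 difference 0.85) and without db/db replicate 1 (1.18). The call against WT was lost without db/db replicate 1 (-0.92), WT replicate 1 (-1.22) or WT replicate 2 (-1.59).

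Defb6, whose gene lies beside that of Defb3 in the beta-defensin cluster, had nearly the same mean with estrogen and with vehicle on the arrays labelled day 7. There it read 4.67 and 3.75 with estrogen, 3.47 and 5.32 with vehicle, 3.5 and 4.40 in untreated db/db and 5.02 and 4.97 in WT. Estrogen and vehicle differed by -0.19 (SE 1.05), and 1 slide gave a higher and the other a lower value with estrogen. Arrays of a group stood far apart on labelled day 14, at 4.94 and 1.61 in WT and at 3.75 and 1.66 with estrogen. Untreated db/db read 2.42 and 1.46 and vehicle 4.17 and 5.0, a 6.26-fold higher level with vehicle that was called but did not pass the adjusted threshold (log2 difference 2.65, SE 1.05, limma adjusted p = 0.214). The call was lost without vehicle replicate 2 (log2 difference 2.23) and without db/db replicate 2 (log2 difference 2.17).

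The 2 low arrays of WT and estrogen were also low in markers of granular keratinocytes, the outer living layer of the epidermis. The summed level of the 4 measured markers was 36.2 on WT replicate 2 and 194.5 on replicate 1, and 57.8 on estrogen replicate 2 and 178.3 on replicate 1. Untreated db/db of labelled day 14 had sums of 146.7 and 147.4 beside its low Defb6, and vehicle 137.4 and 140.9 beside its high Defb6. All 4 markers were well above background in every group. The part of the granular layer in the Defb6 values was not tested. Without WT replicate 2 the Defb6 difference between db/db and WT on labelled day 14 was -3.0 and called, against -1.33 (SE 1.05) with both arrays, and without WT replicate 1 it was 0.33.

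**Figure D2:**
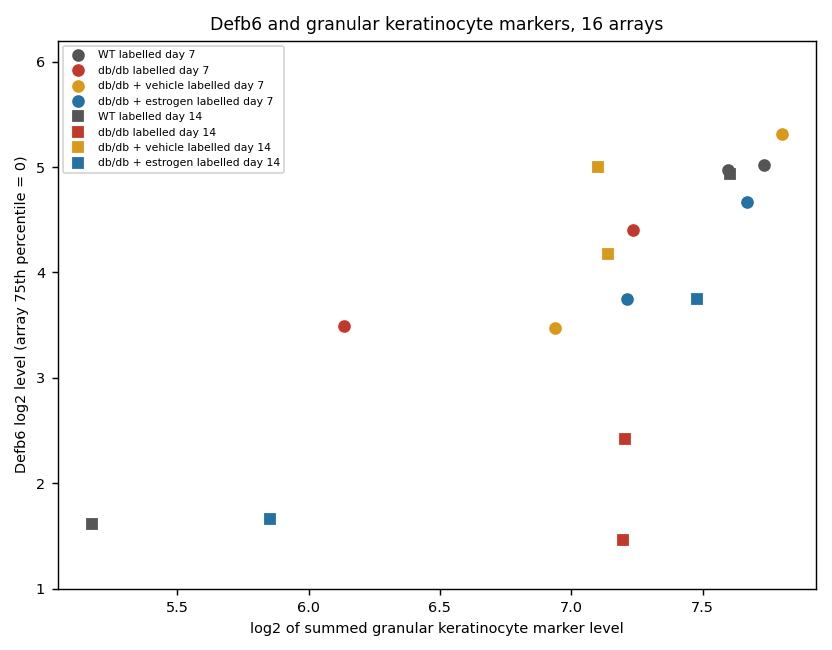
Defb6 log2 level (vertical axis) against log2 of the summed level of 4 granular keratinocyte markers (horizontal axis), 1 point per array and 16 in all, circles for labelled day 7 and squares for labelled day 14. WT replicate 2 and estrogen replicate 2 of labelled day 14 lie at the lower left, and the 2 untreated db/db arrays of that label have Defb6 levels of 2.42 and 1.46 at a middle marker level.

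Reg3g had the widest difference between db/db and WT of the 8 genes. On the arrays labelled day 7 it read 3.46 and 4.99 in untreated db/db, and -1.36 and -5.43 in WT. The db/db mean was 197-fold above the WT mean (log2 difference 7.62, SE 1.35), and the 2 WT arrays themselves differed 16.8-fold. Db/db + vehicle arrays stood between them, at 1.87 and 1.68, as did the estrogen arrays at -1.12 and 0.54. Against untreated db/db, Reg3g was 22.8-fold lower with estrogen and 5.46-fold lower with vehicle, and no array of either treated group reached an untreated one. Estrogen and vehicle differed by -2.07 (SE 1.35), with estrogen lower and no overlap of arrays. Reg3g was the only one of the 8 genes whose estrogen arrays labelled day 7 lay above the WT arrays, by 8.64-fold.

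The Reg3g groups overlapped on the arrays labelled day 14. WT read 1.5 and -0.92, untreated db/db 0.09 and 2.26, estrogen 1.66 and -0.19, and vehicle 1.73 and 0.80. Db/db and WT differed by 0.89 (SE 1.35, limma adjusted p = 0.669), and the direction turned without WT replicate 2 (-0.32), without db/db replicate 2 (-0.20) and with the slide as a fixed block (-0.50). Between the labelled days the day 7 minus day 14 difference was -3.69 for the WT mean and 3.05 for the untreated db/db mean, both without overlap and with the scan day confounded.

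Slpi had the narrowest error of the 8 genes and its lowest level with estrogen on the arrays labelled day 7. There it read 1.35 and 0.58 with estrogen, 5.86 and 4.89 with vehicle, 5.65 and 6.07 in untreated db/db and 3.01 and 2.96 in WT. Estrogen was 21.2-fold below vehicle (log2 difference -4.40, SE 0.43). It was 29.7-fold below untreated db/db, which in turn was 7.34-fold above WT. Estrogen arrays lay 4.05-fold below WT, without overlap.

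On labelled day 14 Slpi was highest in untreated db/db, at 5.66 and 6.48, against 5.12 and 4.56 in WT, 5.0 and 4.12 with estrogen and 5.24 and 4.92 with vehicle. It was called 2.34-fold higher in db/db than in WT (limma adjusted p = 0.0686) and 2.84-fold lower with estrogen than in db/db (limma adjusted p = 0.246). Neither passed the adjusted threshold. The call against WT was lost without db/db replicate 2 (log2 difference 0.82) and without WT replicate 2 (0.95). The call for estrogen was lost without db/db replicate 2 (-1.1) and without estrogen replicate 2 (-1.07). For vehicle against db/db the difference was -0.99 (SE 0.43, limma adjusted p = 0.250) and became a call without db/db replicate 1 (-1.40).

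Pglyrp1 was highest in untreated db/db on the arrays labelled day 7, followed by vehicle, WT and estrogen, with no overlap between neighbours in that order. The values were 1.18 and 0.10 in untreated db/db, -1.87 and -2.18 with vehicle, -3.26 and -3.69 in WT and -4.82 and -3.84 with estrogen. Estrogen was 4.95-fold below vehicle (log2 difference -2.31, SE 0.51). Untreated db/db was 17.3-fold above WT, 31.3-fold above estrogen and 6.33-fold above vehicle. On labelled day 14 untreated db/db remained the highest group, at -1.77 and -0.67, above WT at -2.32 and -2.55. That 2.32-fold difference was called but had a limma adjusted p = 0.113. The call was lost without db/db replicate 2 (log2 difference 0.66), without WT replicate 1 (1.33) and without WT replicate 2 (1.1). Estrogen and vehicle were not called lower than db/db with all arrays, and both were without db/db replicate 1 (-1.59 and -1.53).

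**Figure D3:**
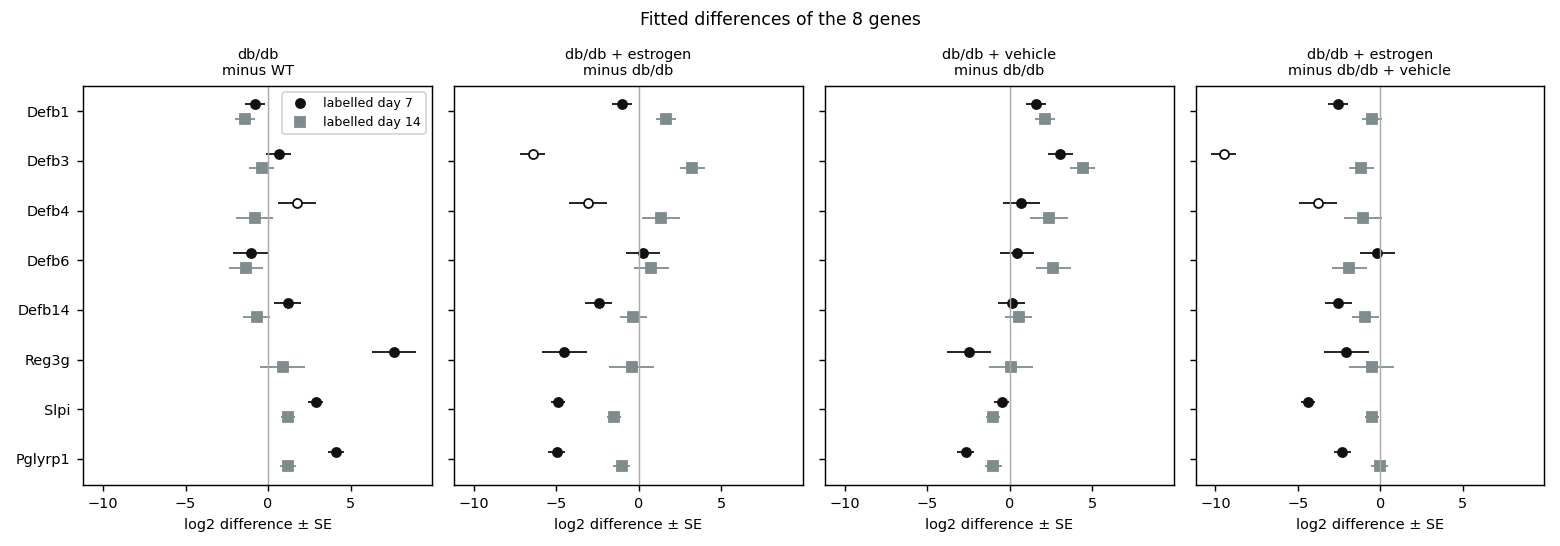
Fitted log2 differences (horizontal axis, with SE bars) of the 8 genes in 4 comparisons, circles for labelled day 7 and squares for labelled day 14. Open points have 1 group not well above background. For estrogen against vehicle all 8 points of both labelled days lie below 0, with Defb3 lowest at -9.48 on labelled day 7.

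Counted over the 8 genes as description, untreated db/db against WT on labelled day 7 had 3 past the thresholds and higher (Reg3g, Slpi and Pglyrp1) and 0 lower, where 5.71% of all probes were called higher and 8.48% lower. Estrogen against untreated db/db on that label had 0 higher and 6 lower past the thresholds (Defb3, Defb4, Defb14, Reg3g, Slpi and Pglyrp1), with 5.26% and 4.74% over all probes. Without db/db replicate 2 the latter count was 3. Vehicle against untreated db/db had 2 higher (Defb1 and Defb3) and 1 lower (Pglyrp1), with 2.55% and 2.37% over all probes. Estrogen against vehicle had 0 higher and 6 lower (all but Reg3g and Defb6), with 4.72% and 4.36% over all probes. Nothing is read from these 4 counts, since the arrays may have served the choice of genes.

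Among comparisons of labelled day 14, untreated db/db against WT had 2 called higher (Slpi and Pglyrp1) and 1 lower (Defb1), and none passed the adjusted threshold, where 2.38% and 15.7% of all probes were called. Both db/db arrays lay on 1 slide and both WT arrays on another. With the slide as a fixed block the count was 0. The calls of Defb1, Slpi and Pglyrp1 were all lost without WT replicate 2, where Defb6 was called instead. Those of Defb1 and Pglyrp1 were also lost without WT replicate 1. Slide and genotype are only partly told apart, through treated arrays on both slides. Estrogen against untreated db/db had 2 called higher (Defb1 and Defb3) and 1 lower (Slpi), with 2.61% and 1.38% over all probes, and 0 by adjusted p. Vehicle against untreated db/db had 3 called higher (Defb1, Defb3 and Defb6) and 0 lower, with 5.41% and 2.26% over all probes, and 1 by adjusted p. The 2 treatments share the untreated db/db arrays. Estrogen against vehicle had 0 called in either direction at the unadjusted threshold of limma, with 0.521% and 0.514% over all probes, although all 8 means were lower with estrogen, as were 50.7% over all probes. The count was 2 (Defb3 and Defb6) without estrogen replicate 1.

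The difference of estrogen from vehicle on labelled day 7 was set against that on labelled day 14 as description. For Slpi the first minus the second was -3.88 (SE 0.61). For Defb3 it was -8.32 (SE 1.07) with the measured values and -6.14 with the estrogen arrays labelled day 7 at the background bound. The other 6 genes had values between -2.75 and 1.70.

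The low antimicrobial levels with estrogen on labelled day 7 came with low summed levels of 2 lists of cell type markers. None of the 8 genes is in these lists. The neutrophil list shares S100a8, S100a9, Camp, Ltf and Retnlg with the list of other skin antimicrobial proteins below. Which cells gave the signal of these shared genes was not tested. The summed level of the 14 measured neutrophil markers was 51.2 to 66.2 on the estrogen arrays, 467.3 to 500.3 with vehicle, 473.6 to 540.1 in untreated db/db and 363.8 to 398.6 in WT. The brightest markers weigh most in such a sum. In WT of labelled day 14, S100a8 and S100a9 had mean log2 levels of 7.14 and 7.85, beside log2 sums of 8.50 and 8.96. Camp and Ltf, also in the list, had means of 3.39 and 2.51 in untreated db/db on labelled day 7. They had -2.70 and -4.40 with vehicle and -3.69 and -6.31 with estrogen, so that the sum does not follow them. Of 13 neutrophil markers tested against vehicle 9 were called lower and 0 higher, and 12 of 14 were still well above background on both estrogen arrays. Single markers also moved with Reg3g, Slpi and Pglyrp1 in untreated db/db on that label, where 10 of 14 were called higher than in WT, with a median log2 difference of 4.22. Against untreated db/db 7 of 14 were called lower with vehicle and 13 of 14 with estrogen, with median log2 differences of -2.25 and -5.36. On labelled day 14, where Slpi and Pglyrp1 were called higher in db/db than in WT, 6 of 13 neutrophil markers tested were called higher and 1 lower. On labelled day 7 the summed level of the 6 wound-edge keratinocyte markers, which include Krt6a and Krt16, was 36.3 to 44.1 with estrogen. It was 240.0 to 637.7 in the other groups of that label, and 5 of 6 markers were called lower with estrogen than with vehicle. The 11 basal and suprabasal keratinocyte markers summed to 425.9 to 542.1 with estrogen, within the 419.8 to 584.1 of vehicle. The part of these cell types in the levels of the 8 genes was not tested.

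**Figure D4:**
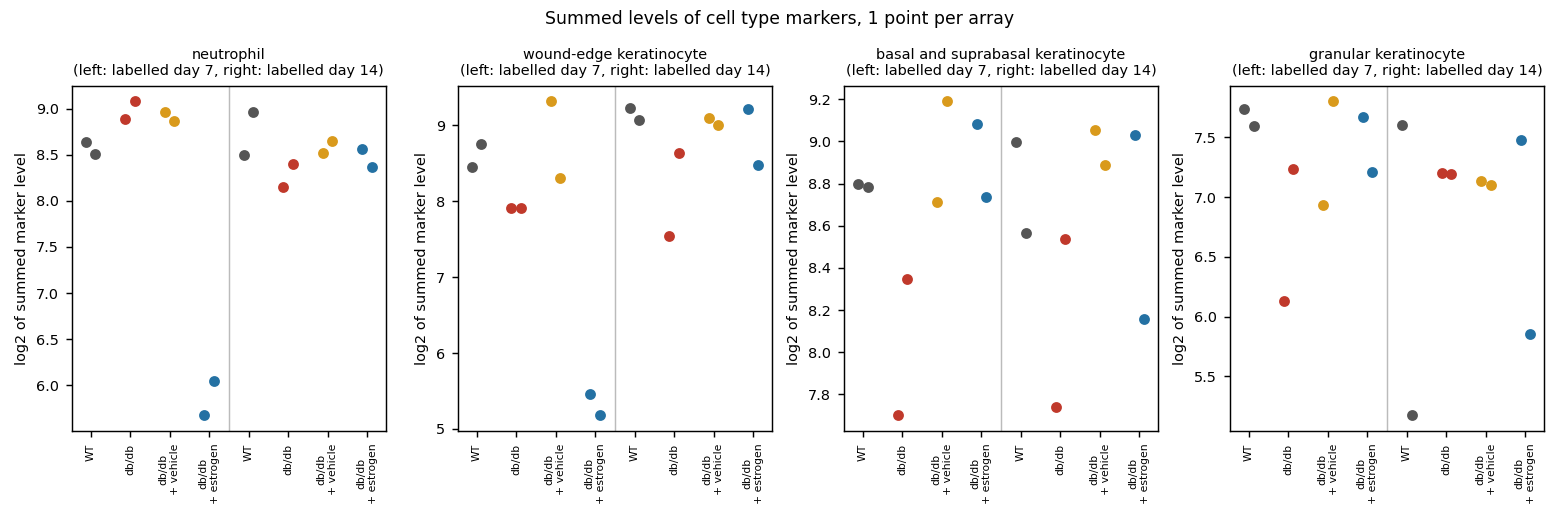
Log2 of the summed level of 4 marker lists (vertical axes) in the 8 groups, 1 point per array. On labelled day 7 the estrogen arrays stand below all others for neutrophil and wound-edge keratinocyte markers, and within the vehicle range for basal and suprabasal keratinocyte markers. The brightest markers of a list weigh most in its sum.

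Related genes were read from lists written from general knowledge, with earlier results of these data known. The genes named are those called in the most comparisons of these same arrays, so that their p-values are not independent evidence. Among cytokines that induce antimicrobial peptides, 11 of 14 tested were called lower and 0 higher with estrogen than with vehicle on labelled day 7, and 3 of the 11 passed the adjusted threshold. The median log2 difference of that list was -2.15. Il1b, the interleukin-1 beta gene, read -4.55 and -0.99 with estrogen and 2.05 and 1.86 with vehicle, and fell by 4.73 on the log2 scale (SE 1.00, limma adjusted p = 0.0325). Osm, which encodes the interleukin-6 family cytokine oncostatin M, was 2.91 higher in db/db than in WT on labelled day 7 (SE 0.47, limma adjusted p = 0.00408) and 2.35 higher on labelled day 14 (SE 0.47, limma adjusted p = 0.00796). Il17f, an interleukin-17 gene, was also called lower with estrogen than with vehicle on labelled day 7, with limma adjusted p = 0.112. Il19, an interleukin-10 family gene, was among the 11 called lower as well. Only 1 of its 2 estrogen arrays was well above background. Il19 thus entered the test through vehicle alone, which favours a lower estrogen level, and no p-value is given for it.

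Of 19 receptors and signal genes of these cytokines tested for estrogen against vehicle on labelled day 7, 0 were called higher and 3 lower. Socs3, a feedback inhibitor of STAT3 signalling, read 2.01 and 2.64 with estrogen and 4.49 and 4.22 with vehicle, and fell by 2.03 (SE 0.24, limma adjusted p = 0.00389). Il17re, a receptor subunit for interleukin-17C, differed by -1.31 between db/db and WT on labelled day 14 (SE 0.32, limma adjusted p = 0.0171). Among 12 pattern receptors tested, 0 were called higher and 2 lower with estrogen than with vehicle. Cd14, the lipopolysaccharide co-receptor, fell by 1.79 in that comparison (SE 0.41, limma adjusted p = 0.0419) and was 2.71 higher in db/db than in WT on labelled day 14 (SE 0.41, limma adjusted p = 0.00238). For Osm, Il17re and Cd14, and for Pglyrp4 and Ctsg below, db/db and WT arrays of labelled day 14 lay on different slides. Slide and genotype are thus only partly told apart there.

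**Figure D5:**
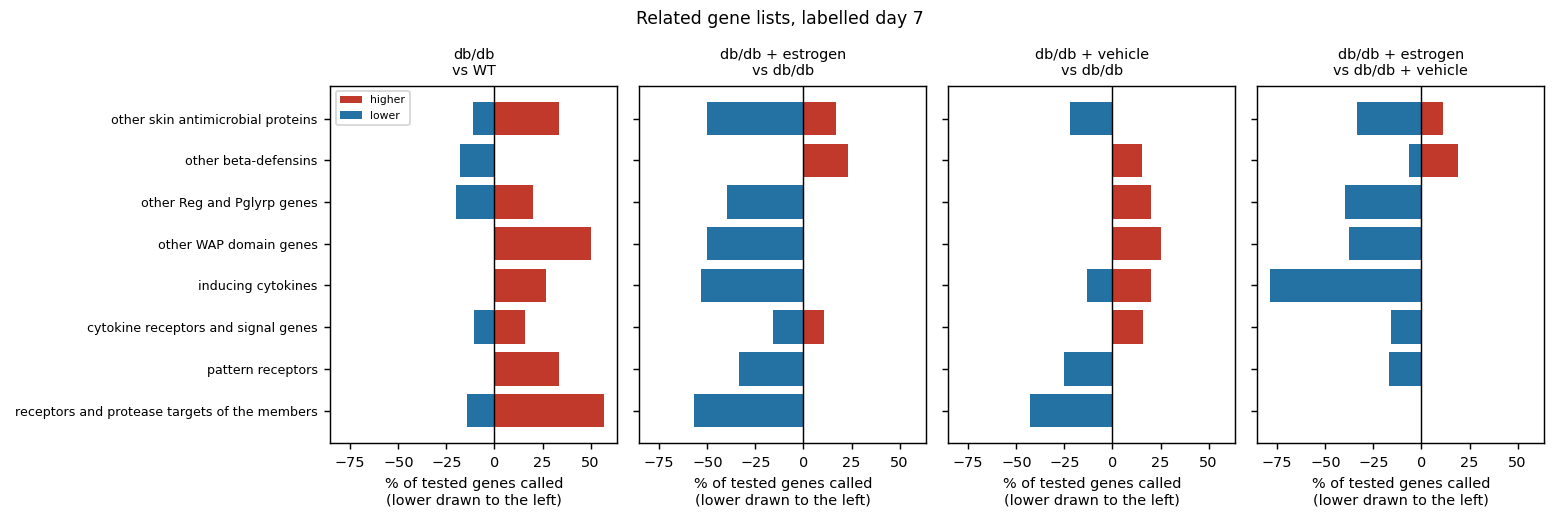
Share of tested genes called higher (right of 0) and lower (left of 0) in 8 related gene lists for the 4 comparisons of labelled day 7, in percent of the genes tested. Inducing cytokines had 11 of 14 called lower with estrogen than with vehicle, and other beta-defensins had 3 of 16 called higher. Il19 among these cytokines entered the test through vehicle alone. Defb8 and Defb26 entered it through estrogen alone, so that their direction was fixed by the filter.

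Of 38 other beta-defensins with a probe, 16 could be tested for estrogen against vehicle on labelled day 7, with 3 called higher and 1 lower. Defb8 read -5.44 and -4.92 with estrogen and was not well above background in the other groups of that label. It was at least 4.21-fold higher than with vehicle. Defb26 was at least 8.29-fold higher than with vehicle, and Defb5 at least 1.53-fold lower, a bound under the 2-fold threshold. In that comparison only estrogen was well above background for Defb8 and Defb26, and only vehicle for Defb5. These genes entered the test through that group, so that their direction was fixed by the filter and no p-value is given. Probe sequences were not analysed here, so that signal shared between related defensins was not tested.

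Among other Reg and Pglyrp genes, Pglyrp4, a peptidoglycan recognition gene of keratinocytes, was called lower with estrogen than with vehicle on labelled day 7. Its level was -6.74 and -7.78 with estrogen, where 1 of 2 arrays was well above background. With vehicle it was -1.95 and -2.70, a difference of 4.94 (SE 0.57). Pglyrp4 entered that test through vehicle alone, which favours a lower estrogen level, so that no p-value is given for it. Unlike Pglyrp1 it had a lower mean in db/db than in WT, with differences of -1.67 on labelled day 7 (limma adjusted p = 0.0758) and -1.74 on labelled day 14 (limma adjusted p = 0.0543). Reg1, a relative of Reg3g, was 4.25 higher in db/db than in WT on labelled day 7 (SE 0.98, limma adjusted p = 0.0191). Unlike Reg3g it had a higher mean with estrogen than with vehicle on that label, at 1.77 and 1.66 against -0.14 and 1.16, which was not called. Of 8 genes with the whey acidic protein domain of Slpi tested for estrogen against vehicle, 3 were called lower and 0 higher, and none passed the adjusted threshold. Wfdc18 had the widest difference of the named ones, at -2.68 (SE 0.75, limma adjusted p = 0.0729).

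Other skin antimicrobial proteins split by direction, with 6 of 18 called lower and 2 higher for estrogen against vehicle on labelled day 7. The list entry Pi3 was read through a synonym as Serpina1c, which is not the gene that was meant. Serpina1c was not taken out of the list behind these counts. Ltf, the lactoferrin gene of neutrophil granules, read 3.25 and 1.76 in untreated db/db and -6.19 and -5.06 in WT, a rise of 8.14 (SE 0.74, limma adjusted p = 0.000229). Its vehicle arrays, at -5.51 and -3.28, differed from untreated db/db by -6.91 (SE 0.74, limma adjusted p = 0.0134). Camp, the cathelicidin gene, was 7.08 higher in db/db than in WT (SE 0.80, limma adjusted p = 0.000738) and differed by -6.08 between vehicle and db/db (SE 0.80, limma adjusted p = 0.0232). Retnla, a resistin-like gene of alternatively activated macrophages and epithelia, went the other way and was 5.24 higher with estrogen than with vehicle (SE 0.63, limma adjusted p = 0.00398). Among receptors and protease targets of the 8 products, Ctsg, which encodes the cathepsin G that Slpi inhibits, was 6.15 higher in db/db than in WT on labelled day 7 (SE 0.45, limma adjusted p = 7.99e-05) and 3.83 higher on labelled day 14 (SE 0.45, limma adjusted p = 0.00065).

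Patterns across the 16 arrays are described by Pearson's r, over arrays that share treatments and depth, and without a test. Among the 8 genes, Defb4 and Defb14 had the highest r at 0.87, followed by Defb3 and Defb4 at 0.83 and Slpi and Pglyrp1 at 0.81. Defb6 had an r between -0.32 and 0.33 with the other 7. Over 16913 genes, those most like Defb3 were Uox at 0.96 and the cornified envelope gene Sprr2e at 0.96. Pglyrp1 was most like Nfe2, a transcription factor gene of blood cells, at 0.97 and Trem3 at 0.96. Reg3g was most like Ifitm6 at 0.91 and Fas at 0.90, with Lcn2, which encodes the iron-siderophore binding protein lipocalin-2, at 0.90. Defb6 was most like Defa-ps12 at 0.97 and Nrip3 at 0.94. Defb14 was most like S100a7a at 0.92, Slpi like Wdr92 at 0.96, Defb1 like Atp2c2 at 0.93 and Defb4 like the desmocollin gene Dsc2 at 0.93.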

How the data were processed

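Gene expression was measured in whole-wound RNA with 16 one-colour Agilent mouse 4x44K arrays, 2 for each of 8 groups named by the sample labels. The authors extracted a background-subtracted and spatially detrended intensity for each spot with Agilent Feature Extraction 11.0.1.1, as deposited in the scanner files with flags for background, saturation and outliers. The deposited series value table holds a ratio of that intensity to the array's 75th percentile for 34643 probes, and served as an alternative. Outlier and control spots were left out, spots of a probe were averaged, and the log2 75th percentile of each array was subtracted. The accession of a probe gave the symbol for 27427 of 39429 probes (69.6%) through RefSeq.

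A limma fit (version 3.58.1, R 4.3.3) with 1 coefficient for each of the 8 groups had 8 residual degrees of freedom. Tests took in every probe flagged above background on the 2 arrays of 1 or both groups compared. For the 8 genes, p-values of labelled day 7 are not printed. P-values are two-sided and set a difference between groups against the spread of arrays within groups. That spread is estimated over all 8 groups and moderated across the probes tested. Where no array of a group was above background, the fold is a bound set against the lowest signal well above background on each array. Members and gene lists were chosen with earlier results of these data known. All members are named. From each list up to 4 genes are named, those called in the most comparisons, with ties broken by the largest difference. For likeness, the 5 genes with the highest r to each member were found among genes well above background on at least 8 arrays, and some of them are named. Summed marker levels are sums of signal over the 75th percentile. The fit was tested on simulated data. Alternatives were normexp correction (offset 50), quantile normalization, other filters on dim probes, blocks for slide and replicate, and leaving out each array. Precision is limited by 2 arrays a group. Array probe sequences and a genome were not used here, and upstream sequences came from RefSeq (GRCm38.p6), aligned with Biopython 1.88.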

Additional observations from a re-analysis of the deposited data

Results flagged for a closer look

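Defb3 was flagged because its estrogen effect differed between the labelled days. The log2 difference of estrogen from vehicle in db/db wounds was -9.48 on labelled day 7 and -1.17 on labelled day 14, a gap of -8.32 (SE 1.07). Against untreated db/db the difference was -6.42 on labelled day 7 and 3.25 on labelled day 14, a gap of -9.67 (SE 1.07). Both gaps are given as description because the arrays labelled day 7 may have served the choice of genes. Defb3 did not clear background on the 2 db/db + estrogen arrays of labelled day 7, so that the size of both gaps rests on a signal near background. With these arrays at the background bound the gaps were -6.14 and -7.50. The labelled day was confounded with the scan day.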

How the results depend on the processing

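The number of the 8 genes called was recomputed under each alternative, and no called difference changed direction in any of them. The counts of labelled day 7 are description, as the arrays may have served the choice of genes. With the Benjamini-Hochberg adjusted p in place of the unadjusted one, the count went from 6 to 3 for estrogen against db/db and from 3 to 0 for vehicle against db/db on labelled day 7. On labelled day 14 it went from 3 to 0 for db/db against WT, from 3 to 0 for estrogen against db/db and from 3 to 1 for vehicle against db/db. On labelled day 14 the count for db/db against WT was 0 with the slide as a fixed block and 1 with the replicate block, and that for vehicle against db/db was 5 after normexp correction. Leaving out each array in turn, the counts on labelled day 7 ranged from 3 to 4 for db/db against WT, from 3 to 7 for estrogen against db/db (3 without db/db replicate 2), from 2 to 3 for vehicle against db/db and from 5 to 6 for estrogen against vehicle. On labelled day 14 they ranged from 1 to 2 for db/db against WT (1 without WT replicate 1 or 2), from 2 to 3 for estrogen against db/db, from 2 to 5 for vehicle against db/db (5 without db/db replicate 1) and from 0 to 2 for estrogen against vehicle (2 without estrogen replicate 1). Such a count can hold other genes than those called with all arrays, as with Defb6 for db/db against WT without WT replicate 2. The cause of these moves was not tested. Same-numbered arrays of different groups had correlations of their deviations between -0.455 and 0.386, so that the numbers do not pair the samples, and the replicate block changed no other count. Over the 8 genes and 8 comparisons, 851 of 955 values under an alternative kept both direction and call, 50 lost the call, 20 gained one and 34 uncalled values changed sign. Signal near background limits Defb3 and Defb4 with estrogen on labelled day 7.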
